A study of Mus musculus with 2 samples.

Results

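Chromatin accessibility at 43 interferon-stimulated and interferon receptor genes was examined in mouse hematopoietic stem cells, the bone marrow cells that renew themselves and produce all blood lineages. The genes were taken from a named list that covers the receptors, the sensors of foreign nucleic acid and the effectors induced by interferon. Of these, 42 belonged to the 21853 protein-coding genes of the mm10 annotation, and the remaining gene, Mx2, is annotated there as a polymorphic pseudogene and was followed separately. Accessibility was measured by ATAC-seq, in which the Tn5 transposase inserts adapters into DNA that is not packed in closed chromatin. The series held 1 group, with 2 biological replicates of 50000 primary stem cells each, from adult male C57BL/6J mice of 5 to 6 weeks. No genotype change, treatment or interferon exposure is given in the labels, the health state is listed as unknown, and surface markers used to isolate the cells are not stated in the labels. The replicates carry the same donor identifier, so their spread may be technical.

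Interferons are secreted proteins that bind receptors on the cell surface and activate JAK kinases and STAT transcription factors. Type I interferons assemble a complex with STAT2 and IRF9 that binds the interferon-stimulated response element (ISRE), while type II interferon acts through the gamma-activated sequence (GAS). Blood stem cells are known to hold some interferon-stimulated genes active without infection, and interferon is known to bring resting stem cells into the cell cycle.

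The measurements are peak lists, in which each peak of open chromatin carries a signal value given by the authors' peak caller. The promoter was taken as the DNA within 1000 bp of any protein-coding transcription start site (TSS). Genes were called open when a promoter peak was present in the thresholded list of each replicate. These lists hold 25141 peaks in replicate 1 and 24495 in replicate 2. The deposited less strict lists hold 62918 and 64843. Percentiles give the rank of a peak's signal value within its own list. Read depth is unknown, so a gene without a peak is one where none was called at that threshold, and signal values are not on a common scale between replicates.

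Marker genes were checked against the label of the cells. Of 12 stem cell markers, 5 were open in the thresholded lists and 9 in the less strict lists, among them Kit with signal values of 7.06 and 9.07 and Cd34 with 8.49 and 8.4. No thresholded promoter peak was called at Procr or Slamf1. Other genes weighted to the same CpG deciles were open in 49.0% of cases, so the stem cell markers, at 41.7%, were open no more often than such genes. None of the 6 erythroid, 6 T and NK cell or 7 granulocyte and monocyte markers was open, including Gata1, Cd3e and Elane. Open markers of other cell types were 1 of 5 for B cells (Pax5), 2 of 5 for megakaryocytes (Pf4 and Itga2b) and 3 of 6 for endothelial and stromal cells (Col1a1, Pdgfrb and Cdh5). The CpG-weighted shares of other genes beside these were 20.8%, 26.8% and 35.7%. In the less strict lists 4 of the 7 granulocyte and monocyte markers and 5 of the 6 endothelial and stromal markers were open. Open there too were 1 of the 6 erythroid and 2 of the 6 T and NK cell markers. For B cells and megakaryocytes the counts were 1 of 5 and 3 of 5. Over all protein-coding genes 58.0% were open in the less strict lists, and no CpG-weighted share is given for the markers there. The part of such cells in the results below was not tested.

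Short stretches around ISRE matches are shown for 10 genes, because they place the known response element beside the accessibility call. An ISRE match was the letters GAAANNGAAA on either strand, capitals mark the matched bases, and each line runs 5′ to 3′ along the gene. Usp18 and Rtp4 were read from GRCm38.p6 at the peak summit of replicate 1, and the others come from RefSeq promoter sequences of the same build. The first 6 genes were open in both replicates, Ifit3 was open in replicate 1 only, and the last 3 were not called in either thresholded list.
Ifit1, chr19:34640765-34640833, plus strand: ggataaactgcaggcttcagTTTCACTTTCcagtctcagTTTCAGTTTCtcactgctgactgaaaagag
Rtp4, chr16:23609851-23609918, plus strand: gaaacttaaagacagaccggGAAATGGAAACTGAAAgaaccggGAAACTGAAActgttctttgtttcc
Usp18, chr6:121245829-121245876, plus strand: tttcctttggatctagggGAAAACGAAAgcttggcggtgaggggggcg
Ifitm2, chr7:140955988-140956027, minus strand: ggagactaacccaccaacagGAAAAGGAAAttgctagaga
Bst2, chr8:71537567-71537622, minus strand: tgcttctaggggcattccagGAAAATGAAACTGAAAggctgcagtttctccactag
Irgm1, chr11:48871421-48871470, minus strand: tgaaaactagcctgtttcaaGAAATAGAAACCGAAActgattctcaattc
Ifit3, chr19:34583353-34583436, plus strand: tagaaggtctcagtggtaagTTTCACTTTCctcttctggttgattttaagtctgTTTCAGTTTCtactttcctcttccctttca
Isg15, chr4:156200855-156200916, minus strand: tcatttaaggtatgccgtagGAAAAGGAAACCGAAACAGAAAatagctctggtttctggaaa
Oas1a, chr5:120907522-120907565, minus strand: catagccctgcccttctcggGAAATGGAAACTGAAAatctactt
Oas3, chr5:120777705-120777754, minus strand: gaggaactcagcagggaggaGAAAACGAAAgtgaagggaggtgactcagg

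Most interferon genes had an open promoter in these stem cells. Of the 42 genes, 29 (69.0%) were open in both replicates, against 41.3% of all protein-coding genes. Ifnar2 and Ifit3 had a promoter peak in replicate 1 only, 2 of 42 genes, where 7.47% of all genes had one in a single replicate. For the other 11 genes no promoter peak was called in the thresholded list of either replicate. In the deposited thresholded list made from both libraries, 35 of the 42 genes had a promoter peak, against 51.9% of all genes. That list adds Ifnar2, Ifit3, Ifngr2, Dhx58, Ifi44 and Oasl2. Using the less strict lists, 37 genes (88.1%) were open in both replicates, against 58.0% of all genes.

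The share was set beside genes of like CpG content, since promoters rich in CpG are open in most cell types. Interferon genes had CpG-poor promoters: the median ratio of observed to expected CpG over the 2 kb around the most 5′ TSS was 0.259, against 0.478 over all genes. Other genes, weighted to the same CpG deciles, were open in 31.3% of cases in the thresholded lists and in 46.2% in the less strict lists. In the lowest CpG tertile, with ratios up to 0.281, 14 of 23 interferon genes were open, against 9.27% of all genes there. In the middle tertile 12 of 15 were open, against 49.2% of all genes. In the highest tertile 3 of 4 were open, against 65.5%. The distance from other genes was thus widest where CpG was scarce, and the highest tertile holds few interferon genes. No test was made of these shares, because the genes were chosen with earlier results of these data known.

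**Figure D1:**
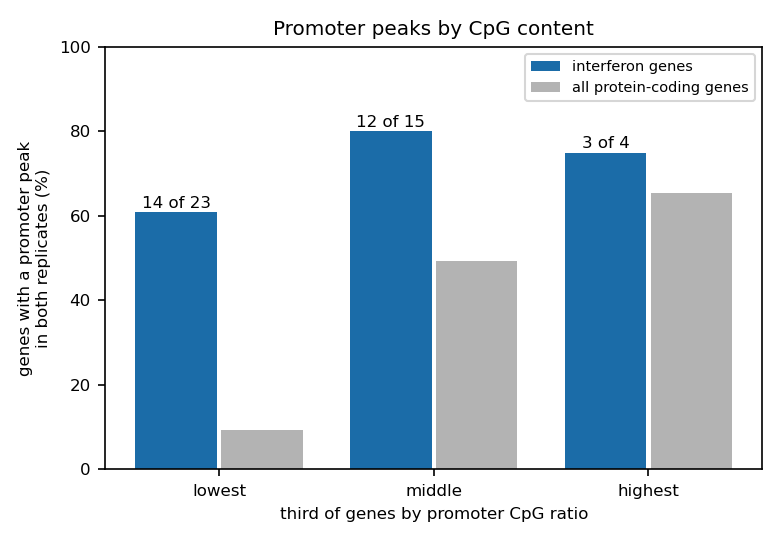
The bars give the percentage of genes with a promoter peak in both replicates, for interferon genes (blue) and all protein-coding genes (grey), by tertile of the promoter CpG ratio from low to high. In the lowest tertile 60.9% of interferon genes were open, against 9.27% of all genes.

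In median signal, the promoter peaks were no stronger than those of all open genes. Over the 29 open genes the strongest promoter peak had a median signal value of 9.10 in replicate 1 and 10.9 in replicate 2. Over all 9030 open genes the medians were 10.3 and 10.9, and over the 675 open genes of the lowest CpG tertile they were 9.54 and 10.4. In percentiles of the lists, the interferon genes' medians were 57.6 and 66.5, against 72.0 and 66.5 for all open genes and 63.0 and 60.5 for those of the lowest CpG tertile. The interferon genes' medians therefore ranked below both sets in replicate 1. In replicate 2 they were level with all open genes and above those of the lowest CpG tertile. Trim21 had the highest and Irgm1 the lowest value in each replicate. In 24 of the 29 genes the summit of this peak lay within 200 bp of a TSS of the gene in both replicates, and the peaks of the replicates overlapped in each of the 29. A second shared promoter peak, weaker in replicate 1, was present at 5 of the 29 genes: Adar, Isg20, Gbp2, Parp9 and Dtx3l. Replicate 2 ranked the peak above its replicate 1 percentile in 10 of the 29 genes (34.5%), where 36.2% of all open genes did so.

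**Figure D2:**
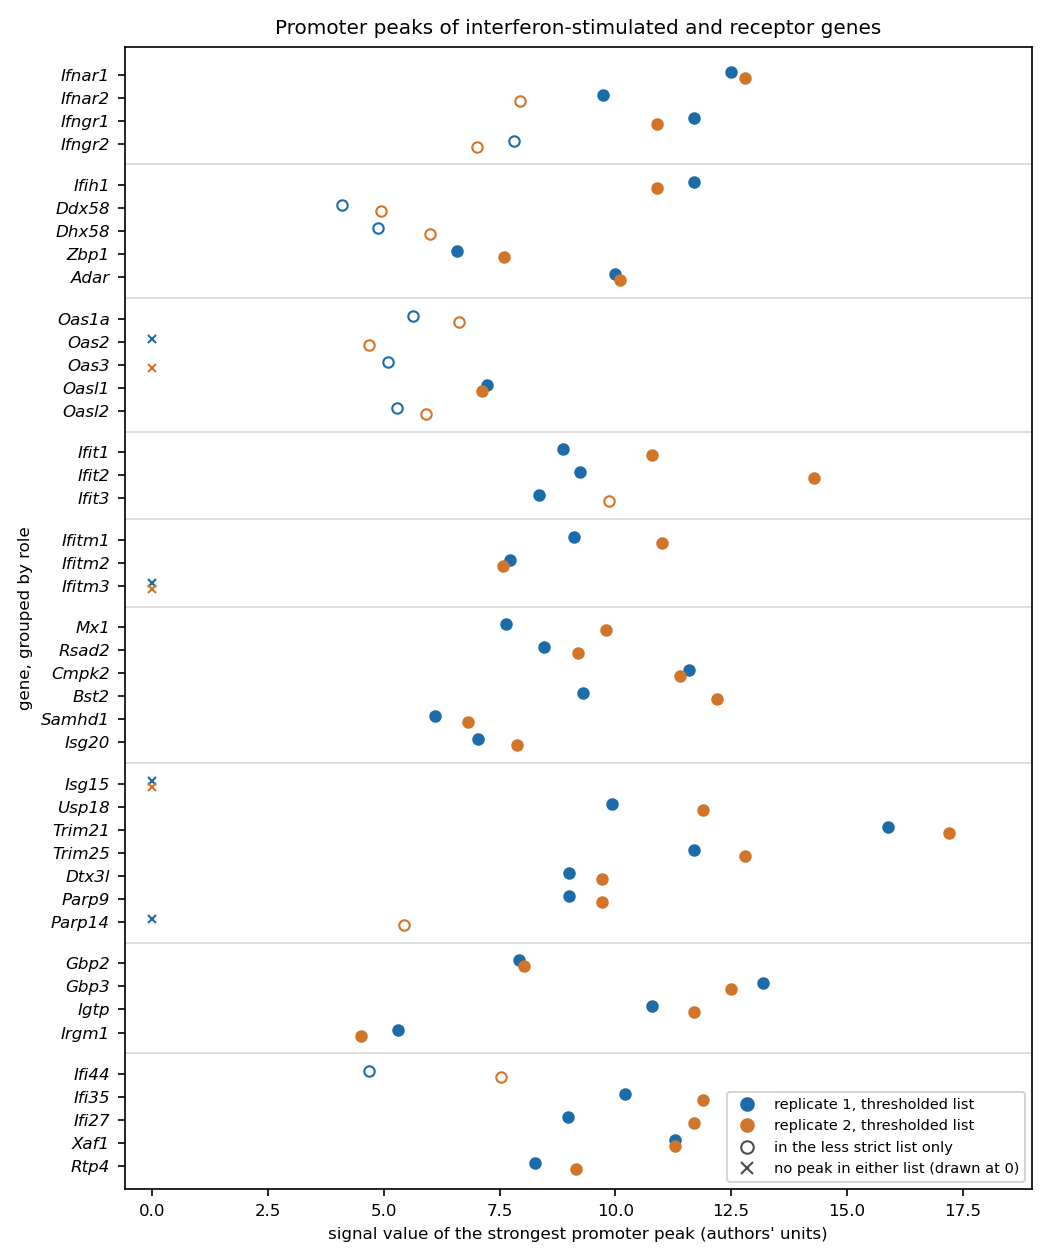
Each row is a gene, grouped by role, and each point is the signal value of its strongest promoter peak in replicate 1 (blue) or replicate 2 (orange). Filled points are in the thresholded list, open points in the less strict list only, and crosses at 0 mark no peak in either; Trim21 lies highest at 15.9 and 17.2, and Isg15 and Ifitm3 have no peak.

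Receptor chains were called unevenly. Ifnar1, a chain of the type I receptor, had signal values of 12.5 and 12.8 in replicates 1 and 2, the 88.6 and 83.8 percentiles. Ifngr1, the ligand-binding chain of the type II receptor, had 11.7 and 10.9, with a peak of 917 bp in both replicates. Ifnar2, the other type I chain, had 9.74 in replicate 1, and in replicate 2 it had a peak of 7.94 in the less strict list only. Ifngr2, the second type II chain, was in neither thresholded list of a single replicate. In the less strict lists it had 7.82 and 7.01, with summits at -478 and -461 bp from its TSS (negative upstream). For each receptor, then, a chain was open in both replicates and its partner fell short of the threshold in the list of at least 1 replicate. In the deposited thresholded list made from both libraries, the partners Ifnar2 and Ifngr2 had promoter peaks, with signal values of 9.91 and 8.35. All 4 genes had CpG ratios of 0.531 to 0.631, above the median of all genes.

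Sensors of foreign or altered nucleic acid were open in 3 of 5 cases. Beside this and the family counts below stand 41.3% of all genes and 31.3% of other genes weighted to the CpG deciles of the whole set. The families are small, and no share weighted to each family was taken. Ifih1, which encodes the sensor MDA5 for long double-stranded RNA, had signal values of 11.7 and 10.9. Adar, the enzyme that edits adenosine in double-stranded RNA, had 10 and 10.1. Its strongest peak lay at an internal TSS, 15668 bp downstream of the most 5′ TSS in replicate 1. Zbp1, a sensor of Z-form nucleic acid that can trigger cell death, was weaker at 6.59 and 7.59. The sensors of the RIG-I family other than Ifih1 were in neither thresholded list of a single replicate. Ddx58, the gene for RIG-I, reached 4.10 and 4.93 in the less strict lists. Dhx58, the gene for their relative LGP2, reached 4.87 and 6.00 there. In the thresholded list made from both libraries Dhx58 had 6.02 and Ddx58 had no promoter peak.

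The oligoadenylate synthetase family had the fewest open promoters, 1 of 5 genes. The median CpG ratio of the 5 was 0.207, within the lowest CpG tertile, where 9.27% of all genes were open. The low count is therefore not set apart from CpG-poor genes at large. The catalytically active members of this family make the short nucleotide messenger that activates RNase L, a nuclease that cuts viral and cellular RNA. The open gene was Oasl1, a family member known in the mouse as a repressor of Irf7 translation, with signal values of 7.23 and 7.12. Its summit lay at -1242 bp from the nearest TSS in replicate 1, so only the edge of the peak reached the promoter, and the same peak is counted again among the distal peaks below. Oas1a had 5.63 and 6.62 in the less strict lists. Oasl2 had 6.14 in the thresholded list made from both libraries, and 5.29 and 5.92 in the less strict lists. Oas2 appeared there in replicate 2 only, at 4.69, and Oas3 in replicate 1 only, at 5.10. For Oas1a, 63.4% of the 31-base stretches sampled within 500 bp of the TSS occur once in the genome, while the value is 100% for Oas2 and 91.1% for Oas3. Short reads are hard to place on repeated sequence, and its part in these calls was not tested.

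In the IFIT family, whose proteins bind viral RNA that lacks the host's cap marks, Ifit1 and Ifit2 were open. Ifit2 had signal values of 9.23 and 14.3, the 59.1 and 92.1 percentiles, so the replicates ranked it differently. Ifit1 had 8.86 and 10.8. Ifit3 had 8.35 in replicate 1, 9.87 in the less strict list of replicate 2 and 10.7 in the thresholded list made from both libraries. Around the Ifit3 TSS, 30.7% of the sampled 31-base stretches occur once in the genome.

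Ifitm1 and Ifitm2, which encode membrane proteins that block fusion of virus with the cell, were open. Ifitm1 had signal values of 9.10 and 11.0, and Ifitm2 had 7.72 and 7.57. Their neighbour Ifitm3 had no promoter peak in any of the 4 lists of single replicates, although 90.1% of its sampled 31-base stretches occur once. A window of 2000 bp reached a shared peak 1586 bp downstream of its TSS, with signal values of 6.01 and 7.08.

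All 6 antiviral effectors of the protein-coding set were open. Cmpk2, a mitochondrial nucleotide kinase, was the strongest in replicate 1 with 11.6, and had 11.4 in replicate 2. Bst2, the gene for tetherin, which holds budding virus at the cell surface, had 9.31 and 12.2. Rsad2, the gene for viperin, which makes a chain-terminating nucleotide, had 8.46 and 9.19. Mx1, a dynamin-like GTPase, had 7.64 and 9.80. Isg20, an exonuclease, had 7.04 and 7.87, and Samhd1, an enzyme that depletes deoxynucleotides, had 6.10 and 6.82. Samhd1 had the highest CpG ratio of these genes, 0.624, and the lowest signal values. Mx2 had peaks of 7.32 and 8.11 at -132 and -147 bp from its most 5′ start, which belongs to a transcript annotated as a polymorphic pseudogene. Nearer its protein-coding start, at -34 and 202 bp, the peaks had 5.66 and 5.79, the 5.77 and 2.6 percentiles. Counting Mx2 would give 30 of 43 genes.

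The ISG15 and ubiquitin system was open in 5 of 7 genes, but not at Isg15 itself. Trim21, a ubiquitin ligase that binds antibody-coated virus, had the strongest peak of all these genes, with signal values of 15.9 and 17.2 (98.3 and 98.7 percentiles) on a promoter with a CpG ratio of 0.206. Trim25, the ligase that modifies RIG-I, had 11.7 and 12.8. Usp18, which removes ISG15 from proteins and restrains the type I receptor, had 9.92 and 11.9. Parp9 and Dtx3l, whose proteins form a complex of ADP-ribosyltransferase and ubiquitin ligase, lie head to head and share both of their promoter peaks, the stronger with 9.0 and 9.72 and the weaker with 6.01 and 8.05. Taking the strongest peak of each gene, the 29 open genes rest on 28 distinct peaks, and with the weaker shared ones on 32. Parp14, another ADP-ribosyltransferase, had a peak of 5.44 in the less strict list of replicate 2 only. Isg15, the ubiquitin-like modifier, had none in any list of either replicate, although 96.0% of its sampled 31-base stretches occur once in the genome.

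All 4 interferon-induced GTPases, from families known for defence against intracellular pathogens, were open. Gbp3 had signal values of 13.2 and 12.5, and Gbp2 had 7.92 and 8.02, with summits 392 and 779 bp downstream of the nearest TSS in replicate 1. A second, weaker peak of Gbp2, with 7.19 and 7.81, had its summit at -2 bp from the TSS in replicate 1. Igtp had 10.8 and 11.7 on a peak that also covers a promoter of Irgm2 and whose summit sequence occurs 2 times in the genome. Irgm1 had 5.31 and 4.5, the 3.70 and 0.694 percentiles, close to the bottom of both lists.

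Of the 5 remaining interferon-induced genes, 4 were open. Xaf1, the gene for a protein that binds the apoptosis inhibitor XIAP, had signal values of 11.3 in both replicates. Ifi35 had 10.2 and 11.9, and Ifi27, which encodes a mitochondrial protein, had 8.98 and 11.7. The summit sequence of Ifi27 occurs 2 times in the genome in replicate 1. Rtp4, a chaperone of receptor transport with antiviral activity, had 8.26 and 9.15 at an internal TSS, 89609 bp from its most 5′ TSS in replicate 1. Ifi44, an interferon-induced cytoplasmic protein, missed the thresholded lists of both replicates and reached 4.67 and 7.54 in the less strict ones. In the thresholded list made from both libraries Ifi44 had 7.22.

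The ISRE was frequent in these promoters whether or not they were open. RefSeq sequences from 250 bases before to 50 after the gene start were matched for 33 of the genes. An ISRE stood in 16 of them (48.5%), against 4.02% of 16515 genes of the table. Among genes of the lowest CpG tertile it stood in 11 of 17 interferon genes, against 5.7% of all genes. Genes open in both replicates held it in 10 of 23 cases and the remaining genes in 6 of 10. Among those 6, the matches of Ifit3 lay inside a thresholded peak of replicate 1. The matches of Ddx58, Oas1a and Oas3 lay inside less strict peaks of replicate 1. Those of Isg15 and Ifitm3 lay in no peak. Isg15 held 3 overlapping matches at -74, -68 and -62 bases from the RefSeq start, and Oas1a held a pair at -16 and -10, as in the lines printed above. An ISRE near the start was therefore present in genes with a peak, such as Ifit1 and Bst2, and in genes without one, such as Isg15.

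Other consensus sequences were counted in the same 33 promoters. GAS, TTCNNNGAA, stood in 11 (33.3%), against 9.02% of all genes and 11.5% of those of the lowest CpG tertile. EICE, GGAANNGAAA, an element bound by PU.1 with an IRF partner, stood in 5 (15.2%), against 3.05% and 3.72%. ETS, CCGGAAGT, stood in 3 (9.09%), against 5.94% and 0.953%. NRF1, GCGCNNGCGC, stood in 2 (6.06%), against 9.99% and 1.05%. For NRF1 the interferon genes thus lay below all genes and above the CpG-poor ones. EICE and ISRE matches can overlap in runs of GAAA, so their counts are not separate. A match is a run of letters and not a bound site.

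**Figure D3:**
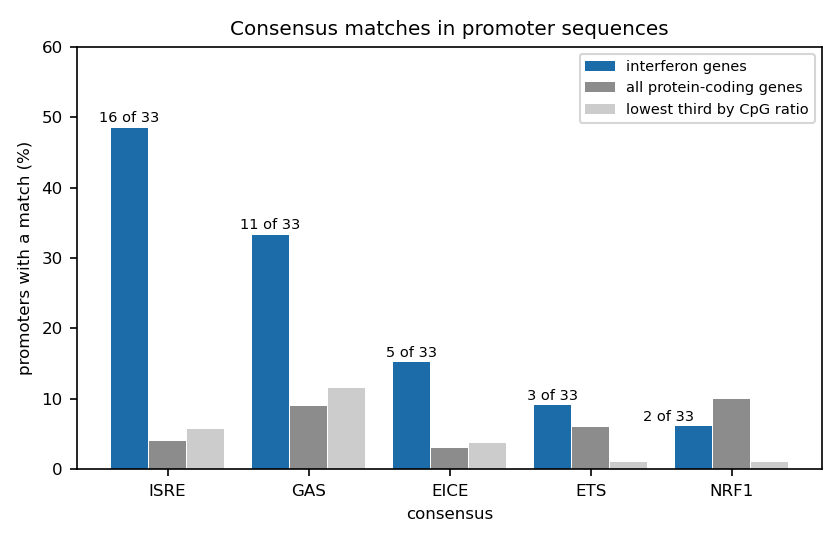
The bars give the percentage of RefSeq promoters that hold each consensus, for the 33 interferon genes (blue), all protein-coding genes of the table (dark grey) and those of the lowest CpG tertile (light grey). ISRE and GAS stand highest among interferon genes, at 48.5% and 33.3%.

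The position of the ISRE relative to the peak was read next. Of the 10 open genes with a match in the RefSeq sequence, 9 had it inside a thresholded replicate 1 peak, the exception being Gbp3, whose peak begins downstream of it. Within 50 bp of the replicate 1 summit of the strongest shared promoter peak, 5 of the 29 open genes held a match: Ifit1, Ifitm2, Usp18, Ifi27 and Rtp4. Among the 7953 such peaks of all open genes 0.78% held a match, and among those of the lowest CpG tertile 2.27%. Ifit1 had matches 1 and 20 bp from its summit, while those of Bst2 lay 118 and 112 bp away. With every shared promoter peak of a gene, a choice made after the data had been seen, 8 of the 29 genes held a match, against 0.945% of open genes. This adds the weaker peaks of Gbp2 and of Parp9 with Dtx3l. With the strongest peaks and the summits of replicate 2, 8 of the 29 genes held a match, against 0.867% of all such peaks. The count thus depends on which summits are used.

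Distal peaks were counted as replicate 1 peaks that overlap a replicate 2 peak, with a summit over 1000 bp from every protein-coding TSS and within 50 kb of a TSS of the gene. The 42 genes had 35 distinct peaks of this kind, and 27 genes (64.3%) had at least 1, against 43.9% of all genes and 42.8% of other genes weighted to the same CpG deciles. The mean was 1.07 per interferon gene (SD 1.05 over genes), against 0.706 in the weighted other genes, where a peak counts for every gene whose window holds it. Counted once, the 35 peaks come to 0.833 per interferon gene. They include the Oasl1 peak described above, whose interval also reaches the promoter of that gene. Of the 35 peaks, 8 lay in the windows of several interferon genes, and for 21 the nearest protein-coding gene was an interferon gene. Outside protein-coding genes lay 23 peaks, 10 lay in introns and 2 in exons. Their median signal percentile in replicate 1 was 47.0, against 52.3 for all 11202 shared distal peaks, and 3 of the 35 held an ISRE at the summit, against 1.93% of all.

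The highest number for any gene was 3, reached by Ifnar2, Zbp1, Ifitm1, Ifitm3, Rsad2 and Usp18. The Ifnar2 peaks were all upstream, at -18.0, -17.4 and -5.50 kb, with signal values of 6.91, 8.36 and 10.2 in replicate 1 and 6.26, 7.0 and 10.6 in replicate 2. Usp18 had a pair of neighbouring peaks at 3.58 and 4.18 kb, with 6.13 and 9.47 in replicate 1, which overlap the same replicate 2 peak of 9.58, and another at -30.7 kb inside Tuba8. The peaks of Ifitm1 and Ifitm3 are in part the same, since these genes are neighbours. Some genes without a promoter peak in the thresholded list of either replicate had a peak inside the gene. Ifi44 had an intronic peak 7.54 kb downstream of its TSS, with signal values of 7.94 and 8.83. Oas3 had an intronic peak 1775 bp from its nearest TSS, with 7.13 and 7.32.

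Of the 35 distal peaks, 2 stood above the 75th percentile of both lists, against 16.8% of all shared distal peaks. The first lay at -4.45 kb from Ddx58, at chr4:40244145-40244485, with signal values of 13.1 and 12.1. Ddx58 itself had no thresholded promoter peak, so the strongest called region near this gene lay outside its promoter. The other lay 47.1 kb downstream of a Zbp1 TSS, at chr2:173171461-173172365, with 10.7 and 12.6, and its nearest gene was Pck1. In replicate 1 alone a Ddx58 peak at -47.8 kb and an Irgm1 peak at -29.7 kb also passed, and the summit sequence of the Irgm1 peak occurs 3 times in the genome. In replicate 2 alone the peaks near Cmpk2 (19.2 kb), Ifit2 (-49.7 kb) and Ifitm3 (19960 bp) passed.

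**Figure D4:**
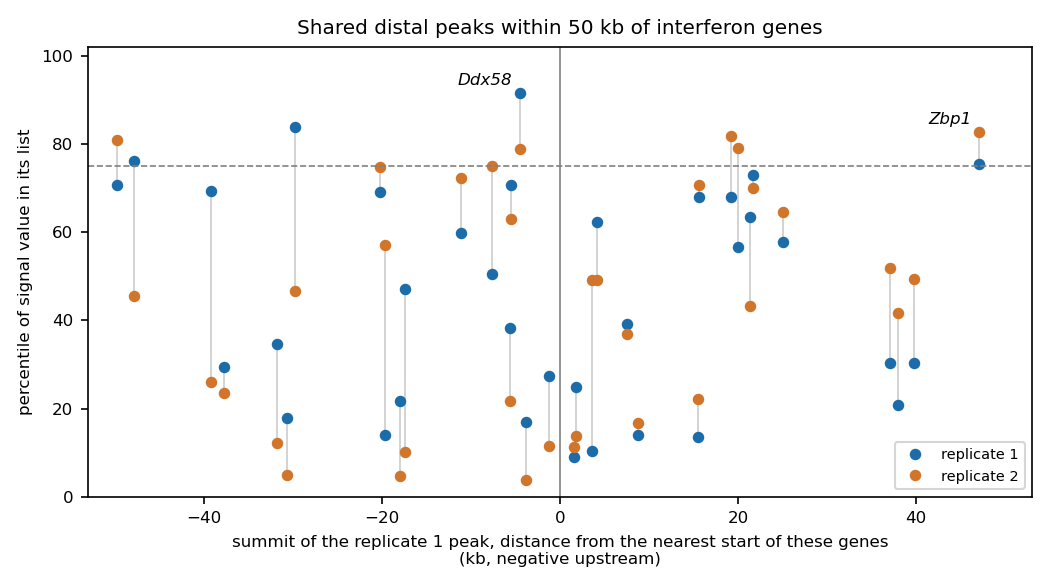
Each pair of points is a shared distal peak, placed by its distance in kb from the nearest TSS of an interferon gene (negative upstream) and by the percentile of its signal value in replicate 1 (blue) and replicate 2 (orange). The dashed line marks the 75th percentile, above which the Ddx58 peak at -4.45 kb and the Zbp1 peak at 47.1 kb stand in both replicates.

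The rest of the interferon pathway was read from further lists. None of the 21 interferon ligand genes, Ifnb1 and Ifng among them, was open in the thresholded or the less strict lists. Other genes weighted to their CpG deciles were open in 10.2% of cases in the thresholded lists. No such share is given for the less strict lists. Genes that signal from the receptors were open in 13 of 15 cases, against 49.6% of genes weighted in the same way. Stat2, Pias1 and Jak1 led them, and Stat2, a subunit of the complex that binds the ISRE, had signal values of 17.8 and 18.2. Jak2 had no thresholded promoter peak and Irf7 had one in replicate 2 only, at 5.95, though both were open in the less strict lists. Genes of nucleic acid sensing upstream of interferon were open in 4 of 12 cases, against 36.4%, led by Mavs, the adaptor of RIG-I and MDA5, at 13.6 and 15.7. In the less strict lists 9 of the 12 were open, where 58.0% of all genes were. Tbk1, Ikbke and Irf5 were among those with no thresholded promoter peak, and Irf5 was open in the less strict lists.

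A further 46 interferon-induced genes outside the 43 gave a like share. Of these, 29 (63.0%) were open, against 26.8% of genes weighted to their CpG deciles. Pnpt1 had signal values of 20 and 20.8, Trim5 had 19.7 and 20.3 and Trim30a had 16.5 and 15.0, while Gbp4, Gbp5 and Gbp6 had no thresholded promoter peak. Irgm2 is counted here on the same peak as Igtp, and Tap1 shares its strongest peak with Psmb9. This list is thus not wholly separate from the 43 genes, and the genes in it were chosen with earlier results known.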

How the data were processed

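The data are ATAC-seq peak lists of 2 stem cell libraries in mm10, made by a uniform pipeline, per the deposited file notes; aligner and peak caller: not given in the sources used here. A signal value per peak was assigned by the authors' peak caller, and the deposited −log10 q-values were read but carry no result. Lists thresholded on the irreproducible discovery rate were the main ones, and the deposited pseudoreplicated lists the less strict ones. Depth per library is unknown from these files, so no precision from counting is given. Intervals listed with several summits were kept once with the strongest, on assembled chromosomes.

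Genes came from GENCODE vM21, and sequence from RefSeq GRCm38.p6, whose chromosome lengths were compared. A shared peak overlaps one of the other replicate by 1 bp or more. For the CpG-weighted comparison, the share among other genes was taken in each of 10 CpG bins and averaged with the members' numbers as weights. Computations used Python 3.11.15, numpy 2.4.6 and pandas 2.3.3, and were tested on simulated data.

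The members and lists were chosen with earlier results of these data known, so no test was made. Named were all members, the genes with the most distal peaks and distal peaks above the 75th percentile. From each other list, up to 3 of the strongest open genes and up to 3 without a thresholded peak were named. Irf7, Klf1 and Nkg7, outside this rule, were named after their values were seen. Some genes of these lists are not reported by name. Mb21d1, Ifi30, Sting1 and Rigi were not in the protein-coding set under those names.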

Additional observations from a re-analysis of the deposited data

How the results depend on the processing

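The count of 29 open interferon genes ranged from 27 to 37 under the other lists, promoter windows, TSS choices and overlap rules tried, and was 29 to 31 with either replicate alone. The exception was the 50% strongest peaks of each list, where 19 genes were open, against 25.6% of all genes and 19.6% of CpG-weighted others. Counting summits inside the promoter (28 genes) and adding Mx2 (30 genes) were chosen after the data had been seen. The CpG-weighted share of 31.3% was 28.8% with tertiles, 27.2% with the highest CpG ratio over the TSSs of a gene, 33.5% with CpG counts, 46.2% in the less strict lists, 19.6% among the 50% strongest peaks and 34.0% to 34.9% with either replicate alone. The 35 distal peaks became 115 in the less strict lists, 59 within 100 kb, 12 among the 50% strongest peaks and 46 to 55 with either replicate alone, where no overlap was required. Per gene, the means were 0.357 against 0.267 in CpG-weighted others among the 50% strongest peaks, and 1.95 against 1.34 within 100 kb. The 5 genes with an ISRE at the summit became 10 within 100 bp of the summit, against 1.74% of all such peaks. They became 8 with replicate 2 summits, against 0.867%, and 8 with every shared promoter peak of a gene. The causes of these differences were not tested. With peak lists of unknown depth and 1 group of 2 libraries, absence of a peak cannot be told from too few reads, and nothing here measures expression or a response to interferon.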
